A study of Homo sapiens with 54 samples.

Results

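The heat shock proteins and cochaperones described here are 10 genes chosen by name: HSPA8, HSPH1, HSP90AA1, HSP90AB1, HSPA1A, HSPA1B, HSPD1, HSPE1, DNAJB1, and BAG3. They were selected with results of these libraries in view, and 8 of the 10 had a line in the table of 31835 genes. HSPA1A and HSPA1B, the stress-inducible HSP70 genes, were not analysed here. HSPA8, HSPH1, and HSP90AA1 (through its copy HSP90AA2P) were already known to weigh on the leading principal components of all 54 libraries, so their levels and fold changes are a description without a test. HSP90AB1, HSPD1, HSPE1, and DNAJB1 were tested among all genes.

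RNA came from OCI-Ly1, an established human B cell lymphoma line that stably expressed Flag-tagged STAT6 from a CMV promoter in a vector that also makes the green protein ZsGreen. STAT6 is the transcription factor activated by interleukin-4 (IL-4), and the constructs were wild-type (STAT6 WT) or one of 3 DNA binding site mutants, D419G, D419N, and N421K (together STAT6 MUT). All cells, wild-type included, received IL-4 at 10 ng/ml for 20 min, were washed, and were kept without IL-4 for 2, 4, or 8 h. Each time point held 9 STAT6 WT libraries and 9 STAT6 MUT libraries, 3 per mutant, and no library without IL-4 or before the pulse was analysed here. OCI-Ly1 carries its own STAT6 gene, in which the authors report a variant of the DNA binding domain. STAT6 WT and STAT6 MUT thus name the construct only. Nothing in the sources used here says that replicates came from separate transductions, so p-values measure only the spread between these samples. Time points lay in separate plate rows, so that time and plate row cannot be told apart.

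Molecular chaperones bind unfolded or maturing proteins. HSP70 proteins act in cycles that J-domain proteins start and nucleotide exchange factors end, and they hand many clients, among them kinases and transcription factors, to HSP90. Inside mitochondria, HSP60 (HSPD1) and HSP10 (HSPE1) form a closed folding chamber. Many of these genes are bound by heat shock factor 1 (HSF1), which recognizes repeats of a short unit in alternating orientation, the heat shock element.

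A heat shock element of 3 units, written GAANNTTCNNGAA or TTCNNGAANNTTC (N is any base; either form on one strand is the other form's complement read backwards, so both strands are covered and sites may overlap), was searched in windows from 250 bases before to 50 bases after annotated starts (RefSeq, GRCh38.p14). It was present for 4 of the 10 genes, compared with 0.608% of 27305 genes with a window. The stretches below hold these elements, in capitals, with 20 bases on either side where the window allowed, and they are shown as a description. Large and small gains with time occurred both with and without the element. From 2 to 8 h in STAT6 WT, log2 gains were 1.23 for HSPA8 and 0.30 for HSP90AB1, which hold it in their windows. They were 1.16 for HSPH1 and 0.26 for HSPE1, which do not. A link between the element and the gain was not tested. No such letters were found in the windows of HSPH1, HSPE1, DNAJB1, BAG3, HSPA1A, and HSPA1B, which says nothing of looser forms of the element. Each stretch is written 5′ to 3′ in the direction of its gene.
HSPA8, chr11:123062159-123062386, minus strand: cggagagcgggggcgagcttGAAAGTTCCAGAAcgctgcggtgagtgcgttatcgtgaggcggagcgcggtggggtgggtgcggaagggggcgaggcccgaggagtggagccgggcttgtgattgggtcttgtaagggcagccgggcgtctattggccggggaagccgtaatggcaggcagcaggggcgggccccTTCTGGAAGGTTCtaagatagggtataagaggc
HSP90AA1, chr14:102087100-102087152, minus strand: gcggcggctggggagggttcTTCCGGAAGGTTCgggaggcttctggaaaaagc
HSP90AB1, chr6:44247758-44247863, plus strand: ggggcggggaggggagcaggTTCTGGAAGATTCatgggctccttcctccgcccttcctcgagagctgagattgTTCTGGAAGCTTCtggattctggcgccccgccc
HSPD1, chr2:197500048-197500090, minus strand: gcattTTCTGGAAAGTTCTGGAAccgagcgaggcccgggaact
The elements of HSPA8 began 230 and 55 bases before its start, and that of HSP90AA1 88 bases before its start. The elements of HSP90AB1 began 165 and 112 bases before the start. The 2 overlapping elements of HSPD1 lay between the RefSeq starts of HSPD1 (197499840) and HSPE1 (197500379), neighbours on chromosome 2 that are read away from each other. They were 228 bases from the RefSeq start of HSPD1 and 294 bases from that of HSPE1, 44 bases outside its window. The GENCODE gene spans given with the levels below reach further upstream and overlap, and by the GENCODE start of HSPE1 (197500140) the elements, which end at 197500085, would lie inside its window. Of 68 other chaperone genes with a window, 5 held the 3-unit element (CHORDC1, DNAJA1, DNAJB6, HSPA6, and SERPINH1).

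Libraries held 161518 to 2978715 unique molecular identifiers (UMIs, each marking 1 captured mRNA 3′ end), and levels below are CPM, UMIs scaled to one library size with TMM factors. Of 6 B cell markers, 6 were present (summed level 2569 to 3523 CPM), T cell markers were not analysed here, and myeloid markers had 16 UMIs over all libraries. Mitochondrial transcripts took 4.52% to 7.02% of the UMIs. Libraries under 200000 UMIs stood apart. They were D419G replicate 3 of 4 h, D419N replicate 3 of 8 h, and N421K replicate 2 of 8 h, and their log2 levels scattered around the median of their group with an SD of 0.391 to 0.415 over genes at 100 CPM or more, compared with 0.124 to 0.310 in the other 51. Pseudogene copies of the chaperones took 8.32%, 8.33%, and 6.73% of the joint UMIs of parents and copies in these libraries, below the 9.54% to 16.5% (median 14.3%) of the others. Where leaving out these 3 libraries changed a call or a sign or moved a value printed for a member by over 1.5 times, the value without them is given beside the result, and for the change from 2 to 8 h in STAT6 MUT it is given throughout.

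Together the 8 genes took 0.446% to 0.528% of all UMIs at 2 h in STAT6 WT, 0.567% to 0.646% at 4 h, and 0.726% to 0.808% at 8 h, with no overlap between time points. In STAT6 MUT, the share was 0.470% to 0.565% at 2 h, 0.570% to 0.680% at 4 h, and 0.638% to 0.787% at 8 h, where the 4 h and 8 h ranges overlapped. The share includes HSPA8, HSPH1, and HSP90AA1, which were chosen on their pattern, so that the choice itself raises its gain with time. The gain was graded by gene. In STAT6 WT, every 8 h library lay above every 2 h library for 5 of 7 genes (HSPA8, HSPH1, HSP90AA1, HSP90AB1, and HSPD1), compared with 1.31% of 9142 genes tested, although 3 of the 5 were chosen on their pattern. In STAT6 MUT, this held for 3 of 7 (HSPA8, HSPH1, and HSP90AA1, all chosen on their pattern), compared with 1.47% of 9006 genes. The share over all genes was counted for 2 against 8 h only. Separate ranges given below for other pairs of times have no such background and are a description.

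**Figure D1:**
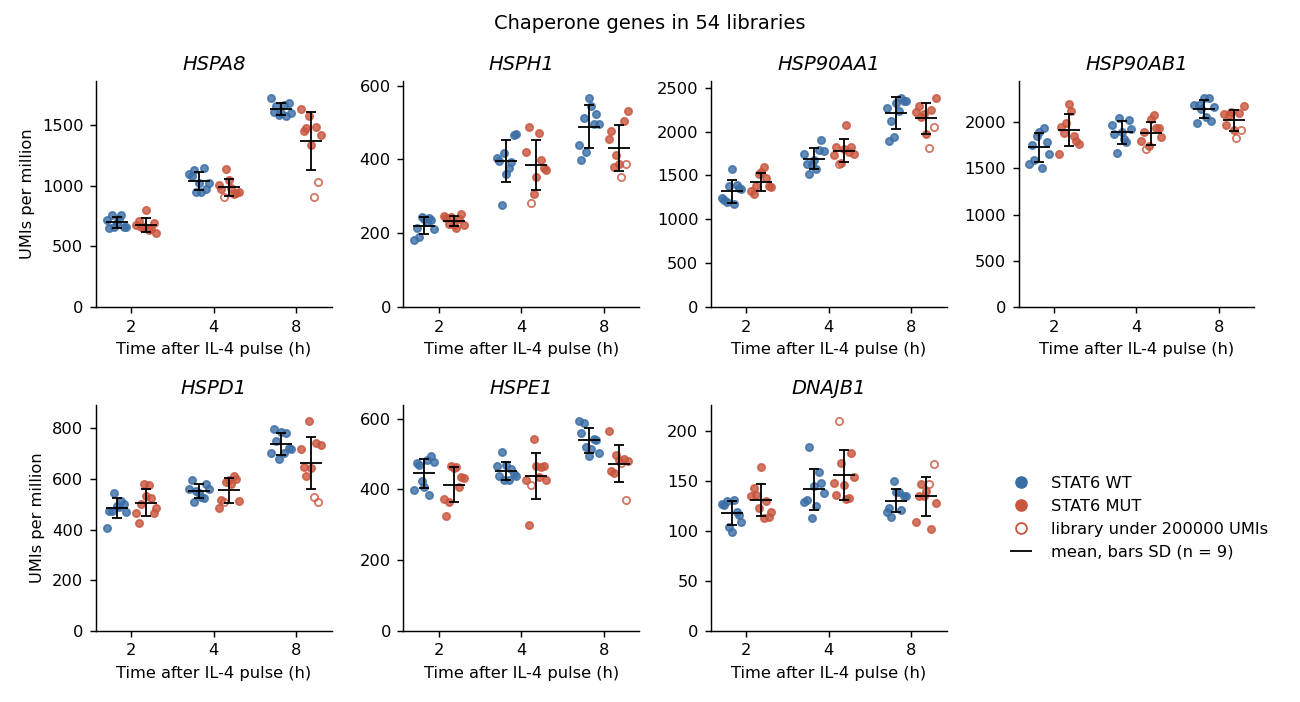
Level of 7 chaperone genes (vertical axis, CPM, from 0) by time after the IL-4 pulse (horizontal axis, 2, 4, and 8 h) in STAT6 WT (blue) and STAT6 MUT (red). Points are single libraries, open points are the 3 libraries under 200000 UMIs, and bars are the mean ± SD of 9 libraries. HSPA8 climbs at each step in both genotypes, HSPE1 climbs late in STAT6 WT, and DNAJB1 stays within 98.2 to 209 CPM.

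HSPA8, the constitutive cytosolic HSP70 (ENSG00000109971, chromosome 11, 123057489 to 123063230, hg38), had the largest gain of the 7. In STAT6 WT, it ranged from 648 to 757 CPM (median 691) at 2 h, from 943 to 1141 (median 1021) at 4 h, and from 1575 to 1722 (median 1603) at 8 h. The 3 ranges were separate from each other. The fold change from 2 to 8 h was 2.35 (log2 1.23, SE 0.05, n = 9 per time point), and 47.8% of the log2 change was reached by 4 h. In STAT6 MUT, HSPA8 ranged from 612 to 796 (median 663) at 2 h, from 909.6 to 1135 (median 968) at 4 h, and from 909.5 to 1629.6 (median 1449) at 8 h, for a log2 fold change of 1.06 (SE 0.07) from 2 to 8 h. The 2 lowest 8 h values, 909.5 and 1029.98, were those of the 2 libraries under 200000 UMIs, and the other 7 ran from 1333 to 1629.6. Without the 3 libraries, the log2 fold change was 1.15 (SE 0.06).

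HSPH1, the HSP110 protein that exchanges nucleotide on HSP70, lies on chromosome 13 (31134973 to 31162388) and moved early. Its level in STAT6 WT was 181 to 244 CPM (median 230.2) at 2 h, 277 to 468 (median 395) at 4 h, and 398 to 567 (median 496) at 8 h. The 2 h libraries lay below all others, whereas those of 4 and 8 h overlapped. By 4 h, 72.1% of a log2 change of 1.16 (SE 0.07, 2.24-fold) had been reached, the highest such share among the 6 genes other than DNAJB1. In STAT6 MUT, HSPH1 was at 215 to 252 (median 239) at 2 h, 282 to 488 (median 376) at 4 h, and 352 to 531 (median 411) at 8 h, again with the 2 h libraries apart. The log2 fold change was 0.73 (SE 0.08) from 2 to 4 h and 0.92 (SE 0.08) from 2 to 8 h there (0.96 without the 3 low libraries).

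HSP90AA1, the inducible cytosolic HSP90 isoform (chromosome 14, 102080742 to 102139699), had levels in STAT6 WT of 1173 to 1577 CPM (median 1343) at 2 h, 1514 to 1903 (median 1671) at 4 h, and 1896 to 2384 (median 2269.5) at 8 h. Neighbouring time points overlapped, but 2 and 8 h did not. In STAT6 MUT, it had 1291 to 1593 (median 1379) at 2 h, 1633 to 2071 (median 1763) at 4 h, and 1813 to 2385 (median 2198) at 8 h, and there the 2 h libraries lay below all others. The log2 fold change from 2 to 8 h was 0.74 (SE 0.05, 1.67-fold) in STAT6 WT and 0.60 (SE 0.06, 1.52-fold) in STAT6 MUT (0.63 without the 3 low libraries), 48.6% and 53.4% of it reached by 4 h.

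Among the 4 genes that were tested, 3 rose between 2 and 8 h in STAT6 WT and none fell, where 15.2% of 9142 genes were called higher and 15.6% lower (edgeR's quasi-likelihood test, Benjamini-Hochberg adjusted p under 0.05). HSPD1, the mitochondrial chaperonin HSP60 (chromosome 2, 197486584 to 197516737), went from 405 to 545 CPM (median 488) at 2 h through 511 to 596 (median 554) at 4 h to 679 to 799 (median 722) at 8 h. The 8 h libraries lay above all earlier ones, a separation from 4 h that was not counted over all genes. It rose at both steps, by a log2 fold change of 0.18 (SE 0.05, adjusted p = 0.00829) to 4 h and 0.41 (SE 0.05, adjusted p = 8.03e-09) from there, in all 0.60 (SE 0.05, adjusted p = 2.2e-15, edgeR). The first step was lost without replicate number 1 (0.15, adjusted p = 0.0542) and with no count filter (0.18, adjusted p = 0.0559). HSPE1, its lid HSP10 (chromosome 2, 197500140 to 197503449), stood at 383 to 495 CPM (median 467) at 2 h, at 425 to 505 (median 442) at 4 h, and at 494 to 592 (median 539.9) at 8 h. The early ranges overlapped from 425 to 495 CPM, and the change was seen after 4 h, with a log2 fold change of 0.25 (SE 0.05, edgeR adjusted p = 0.00137), and 0.26 (SE 0.05, adjusted p = 9.24e-05) over the whole time. By 4 h, 30.9% of the HSPD1 change and 5.4% of the HSPE1 change had been reached, a difference between these partners that was not tested.

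HSP90AB1, the constitutive HSP90 isoform (chromosome 6, 44246166 to 44253888), was 1499 to 1938 CPM (median 1754) at 2 h, 1659.8 to 2045 (median 1895) at 4 h, and 1993 to 2262 (median 2167) at 8 h in STAT6 WT. The last range lay just above the first. It rose by a log2 fold change of 0.30 (SE 0.05, 1.23-fold, edgeR adjusted p = 7.33e-07) from 2 to 8 h, of which 0.17 (SE 0.05, adjusted p = 0.0146) came after 4 h (0.15, adjusted p = 0.067 without replicate number 7). The step to 4 h, at 0.13 (SE 0.05), had an adjusted p of 0.0575 by edgeR, and passed with total counts only (0.15, adjusted p = 0.02) and without replicate number 3, 5, or 7 (adjusted p from 0.0271 to 0.0445). DNAJB1, the J-domain protein that loads clients onto HSP70 (chromosome 19, 14514769 to 14560391), had its highest median at 4 h. It was 98.2 to 131 CPM (median 119) at 2 h, 113 to 184 (median 138) at 4 h, and 113 to 149 (median 134) at 8 h. It rose to 4 h (log2 fold change 0.28, SE 0.07, edgeR adjusted p = 0.00753), the log2 change after 4 h was -0.13 (SE 0.07, adjusted p = 0.322), and the difference between 2 and 8 h did not pass (0.15, SE 0.07, adjusted p = 0.129) except without replicate number 3 (0.20, adjusted p = 0.0294).

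By step, DNAJB1 and HSPD1 were called higher from 2 to 4 h, 2 of the 4 tested genes, where 6.43% of genes were called higher and 6.53% lower. HSP90AB1, HSPE1, and HSPD1 were called higher from 4 to 8 h, 3 of 4, where 3.24% were called higher and 2.65% lower. Over the whole time, the median log2 fold change of the 4 tested genes was 0.28, and that of all 9142 genes was -0.002. With the 3 genes chosen on their pattern it was 0.60, a value that the choice itself raises. BAG3, the exchange factor that links HSP70 to small heat shock proteins and autophagy (chromosome 10, 119651380 to 119677819), had 61 UMIs in all libraries together, at most 5 in any, and none in 18 of 54. Summed over 18 libraries per time point, its UMIs numbered 17 after 2 h, 19 after 4 h, and 25 after 8 h. A change of BAG3 was not tested at this depth.

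**Figure D2:**
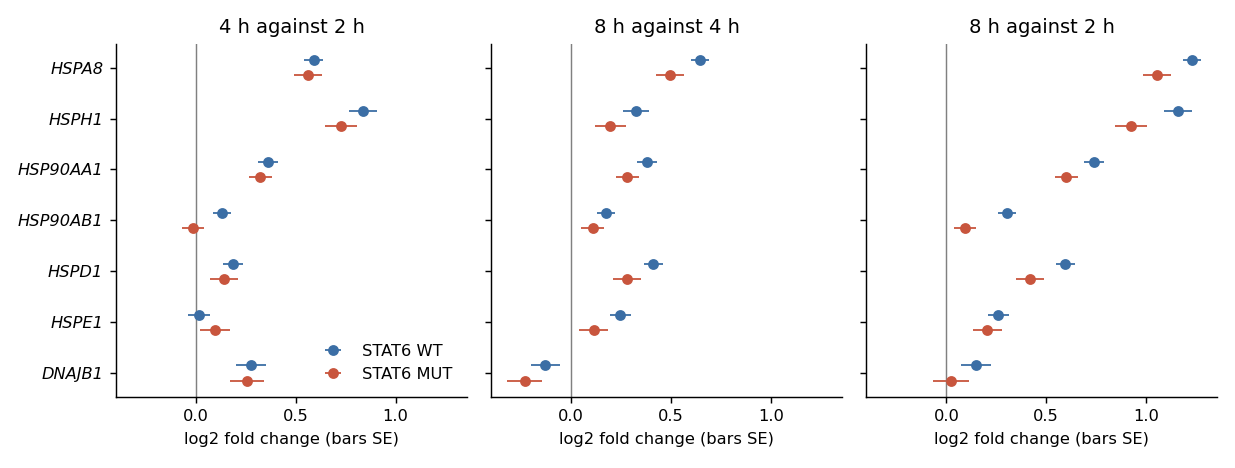
Log2 fold change (horizontal axis, bars SE) of 7 chaperone genes (vertical axis) from 2 to 4 h, from 4 to 8 h, and from 2 to 8 h in STAT6 WT (blue) and STAT6 MUT (red). HSPH1 moves most in the first step, HSPA8 in about equal steps, HSPD1 more in the second, and DNAJB1 is above 0 in the first step and below 0 in the second.

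In STAT6 MUT, HSPD1 and HSPE1 were called higher between 2 and 8 h, 2 of the 4 tested genes, where 16.1% of 9006 genes were called higher and 16.3% lower. HSPD1 was 426 to 580.4 CPM (median 500.1) at 2 h, 484 to 613 (median 582) at 4 h, and 509.9 to 827 (median 646) at 8 h, and these ranges overlapped. Its log2 fold change was 0.42 (SE 0.07, 1.34-fold, edgeR adjusted p = 5.25e-06; 0.47 without the 3 low libraries), and 0.28 (SE 0.07, adjusted p = 0.00719) after 4 h. The later step was lost without D419G (adjusted p = 0.11), N421K (adjusted p = 0.0578), or replicate number 1 (0.17, adjusted p = 0.244). HSPE1 was 324 to 465 (median 431) at 2 h, 300.3 to 543 (median 435) at 4 h, and 369 to 566 (median 481) at 8 h, with a log2 fold change of 0.21 (SE 0.07, adjusted p = 0.0282, edgeR), and of 0.23 without the 3 low libraries. That call was lost without D419G (0.10, adjusted p = 0.415), without N421K (adjusted p = 0.0551), without replicate number 1 or 3 (adjusted p = 0.309 and 0.0944), with no count filter (adjusted p = 0.0719), and when copies were summed with their parents (0.15, adjusted p = 0.140).

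HSP90AB1 was 1657 to 2195 (median 1877) at 2 h, 1706 to 2071 (median 1887) at 4 h, and 1825 to 2172 (median 2071) at 8 h in STAT6 MUT. The time points overlapped throughout, and the log2 fold change of 0.09 (SE 0.06, edgeR adjusted p = 0.209) did not pass (0.12 without the 3 low libraries). It passed with total counts only (0.17, adjusted p = 0.0138), without all libraries below 0.5 of the median total (0.15, adjusted p = 0.0379), and without D419N (0.19, edgeR adjusted p = 0.0142). DNAJB1 was 113 to 164 (median 130.1) at 2 h, 132 to 209 (median 147) at 4 h, and 102 to 167 (median 135) at 8 h, and was called higher from 2 to 4 h (log2 fold change 0.26, SE 0.09, edgeR adjusted p = 0.0493). It was the only one of the 4 tested genes called in that step, where 4.42% of genes were called higher and 3.39% lower, and without the 3 low libraries its adjusted p was 0.0677, inside a range of 0.036 to 0.356 over the alternatives. From 4 to 8 h, HSPD1 alone of the 4 was called, where 4.73% were called higher and 5.11% lower. After 4 h, the log2 change of DNAJB1 was -0.23 (SE 0.09, adjusted p = 0.0803). The estimate for DNAJB1 was thus above 0 to 4 h and below 0 after it in both genotypes, with the later step past the threshold in neither.

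The genotypes were then compared at each time point. None of the 4 tested genes was called at 2, 4, or 8 h (0 of 4 each, by edgeR and by DESeq2), where 8.59% of 8651, 3.97% of 8605, and 1.44% of 8801 genes were called. At an unadjusted edgeR p under 0.05 there was 1 of 4 at 2 h (HSP90AB1), 0 of 4 at 4 h, and 1 of 4 at 8 h (HSPE1). Of all genes, 1897 of 8651, 1296 of 8605, and 1205 of 8801 had such a p. No gene of the 7 had separate ranges in STAT6 WT and STAT6 MUT at any time point. How many of all genes had separate ranges between genotypes was not counted, so this does not show that a difference is absent. HSP90AB1 had a log2 difference of 0.14 (SE 0.05, edgeR adjusted p = 0.0869, mutant minus wild-type) at 2 h and -0.07 (SE 0.05, adjusted p = 0.577) at 8 h, the latter -0.04 without the 3 low libraries. At 8 h, HSPE1 had a log2 difference of -0.16 (SE 0.06, adjusted p = 0.203) and HSPD1 of -0.11 (SE 0.07, adjusted p = 0.468, edgeR). Without those libraries, they were -0.13 and -0.05.

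The size of the HSPA8 difference at 8 h depended on the low libraries, and without them it was smaller but still below 0. In STAT6 MUT, the mean was 1365 ± 242 CPM (SD, n = 9), compared with 1629.9 ± 51.6 (SD, n = 9) in STAT6 WT, a log2 difference of -0.22 (SE 0.07). Without the 2 libraries under 200000 UMIs, the STAT6 MUT mean was 1478 ± 98.8 (SD, n = 7) and the log2 difference -0.13 (SE 0.05). In both of those libraries RPS9, a ribosomal protein gene, was low, at 135 and 146 CPM, compared with 284 to 400.4 in the other 16 libraries of 8 h, and EEF1A1, a translation elongation factor, was at 458 and 571 compared with 744 to 1114. Their part in the HSPA8 result beyond these values was not tested. HSPH1 had a log2 difference of -0.15 (SE 0.07), and -0.11 (SE 0.07) without them. HSP90AA1 had -0.02 (SE 0.06), and 0.01 (SE 0.05) without them, so that its sign turned.

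**Figure D3:**
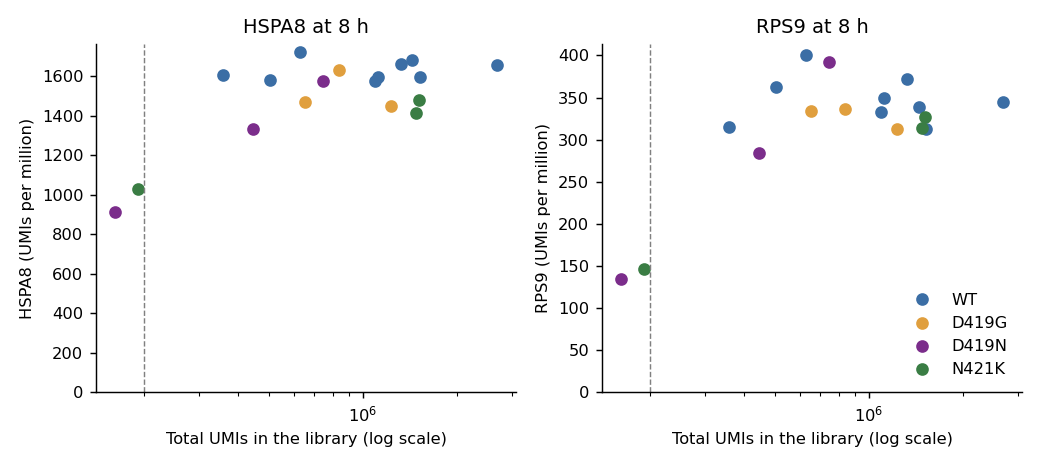
Level of HSPA8 (left) and RPS9 (right) in CPM (vertical axes, from 0) against the total UMIs of the library (horizontal axis, log scale) for the 18 libraries of 8 h, colored by STAT6 construct, with a dashed line at 200000 UMIs. The 2 libraries left of the line, 1 of D419N and 1 of N421K, have the lowest values of both genes.

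The change with time was compared between genotypes by an interaction term over all 54 libraries. The estimate for 2 to 8 h was lower in STAT6 MUT for 7 of 7 genes, 3 of them chosen on their pattern, where 51.8% of 9507 genes had a negative estimate. HSPE1 turned to 0.0071 without D419N. None of the 4 tested genes was called (0 of 4 by edgeR and by DESeq2, 2 of 4 at an unadjusted edgeR p under 0.05), where 1.38% of 9507 genes were called. An unadjusted edgeR p under 0.05 was found for 1248 of the 9507. The differences in log2 fold change were -0.22 for HSP90AB1 (SE 0.07, edgeR adjusted p = 0.12), -0.18 for HSPD1 (SE 0.09, adjusted p = 0.325), -0.18 for HSPA8 (SE 0.08), -0.24 for HSPH1 (SE 0.11), and -0.15 for HSP90AA1 (SE 0.08). HSPE1 (-0.07, SE 0.09, adjusted p = 0.838) and DNAJB1 (-0.13, SE 0.12, adjusted p = 0.679) were within 1.5 SE of 0. Without the 3 low libraries the estimates became -0.19 for HSP90AB1, -0.08 for HSPA8, -0.12 for HSPD1, -0.20 for HSPH1, -0.10 for HSP90AA1, -0.03 for HSPE1, and -0.15 for DNAJB1. These comparisons share their libraries with those above and are no separate evidence.

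With time in the model, no tested gene was called between STAT6 MUT and STAT6 WT across all times (0 of 4 by edgeR and by DESeq2, 1 of 4 at an unadjusted p under 0.05), where 13.4% of 9261 genes were called. An unadjusted edgeR p under 0.05 was found for 2356 of the 9261. HSPE1 had a log2 difference of -0.10 (SE 0.04, edgeR adjusted p = 0.0741), and -0.14 (adjusted p = 0.023) without replicate number 1. HSPA8 had -0.12 (SE 0.04), and -0.08 (SE 0.03) without the 3 low libraries. By line, HSPE1 was lower in D419G than in STAT6 WT, the 1 call among 4 tested genes, where 5.38% of 9706 genes were called. In D419G, replicates 1, 2, and 3 had 373, 324, and 364 CPM at 2 h, compared with 383 to 495 in STAT6 WT, so that all 3 lay below the STAT6 WT range. The gap was narrow, 373 against 383. How many of all genes had such a separation was not counted for any line or time. At 4 h they had 426, 300.3, and 412, and at 8 h 566, 453, and 447, compared with 425 to 505 and 494 to 592 in STAT6 WT. At these times 1 of the 3 libraries lay inside the range of STAT6 WT. The log2 difference over all times was -0.22 (SE 0.05, 0.859-fold, edgeR adjusted p = 0.00335). The call was kept without the 3 low libraries (-0.23) and lost without replicate number 2 of every group (-0.15, adjusted p = 0.165) or 3 (-0.20, adjusted p = 0.0556) and without all 8 libraries under 0.5 of the median total (-0.16, adjusted p = 0.0666).

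In D419N, HSPE1 was at 465, 461, and 462 CPM at 2 h, inside the STAT6 WT range, at 543, 465, and 435 after 4 h, and at 497, 484, and 475 after 8 h, where 1 library lay inside it. In N421K, it was at 406, 434, and 431 after 2 h, 464, 466.4, and 427 after 4 h, and 485, 369, and 481 after 8 h, where none lay inside the range of STAT6 WT. The 369 is that of the library under 200000 UMIs. No tested gene was called against STAT6 WT in D419N, where 2.75% of genes were called, nor in N421K, where 13.7% were called (0 of 4 each by edgeR and by DESeq2, 0 of 4 at an unadjusted p under 0.05). Of 9706 genes, 1327 in D419N and 2466 in N421K had an unadjusted edgeR p under 0.05. HSPE1 had a log2 difference of -0.09 (SE 0.05, edgeR adjusted p = 0.221) in N421K, and the difference between D419G and D419N itself did not pass (-0.23, SE 0.06, adjusted p = 0.112). HSPE1P4, a processed copy of HSPE1, was also lower in D419G (-0.41 log2, edgeR adjusted p = 0.00522) and in STAT6 MUT across times (-0.22, SE 0.07, adjusted p = 0.0166). Near-identical copies can exchange reads, so these calls are not independent.

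**Figure D4:**
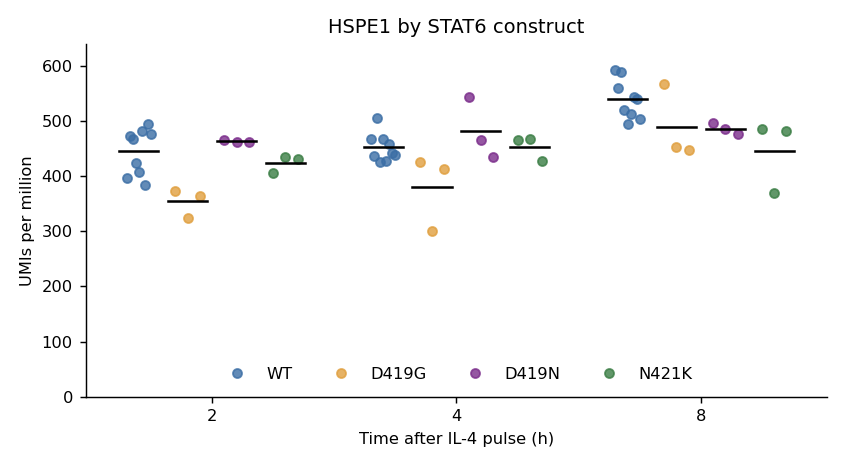
Level of HSPE1 in CPM (vertical axis, from 0) by time after the IL-4 pulse (horizontal axis) and STAT6 construct (color), with 1 point per library and the mean as a line (9 libraries of WT and 3 of each mutant per time). The 3 D419G libraries of 2 h lie below all 9 STAT6 WT libraries by a narrow gap, a separation that was not counted over all genes.

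Near-identical copies of the members, which can share their reads, had changes in STAT6 WT that ranged from close to those of their parents to near 0. HSP90AA2P, the most abundant of 24 copies with a mean of at least 1 CPM, had a log2 fold change of 0.87 (SE 0.08) from 2 to 8 h beside 0.74 for HSP90AA1, and HSPA8P1 had 1.34 (SE 0.19) beside 1.23 for HSPA8. HSPD1P1 had 0.53 (SE 0.08) beside 0.60 for HSPD1, and HSPE1P25 had 0.01 beside 0.26 for HSPE1. In STAT6 MUT, the estimates of HSP90AB2P (-0.28, SE 0.13) and HSP90AB3P (-0.20, SE 0.14) were below 0 while that of HSP90AB1 was above it. The 8 h libraries under 200000 UMIs, of D419N and N421K, had the lowest STAT6 MUT values at 8 h. These were 46.9 and 55.5 CPM for HSP90AB2P (group median 81.0), and 29.3 and 45.4 for HSP90AB3P (group median 111). Summed with its copies, HSP90AB1 had an interaction of -0.27 (SE 0.08, edgeR adjusted p = 0.0683). Estimates of the copies and of this sum without the low libraries are not given here.

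The genes most like HSPA8 by Pearson correlation of log2 levels over 54 libraries, among 8958 genes at 10 CPM or more that are neither members nor copies, were AHSA1 (r = 0.93), RGCC (0.89), EIF4A2 (0.88), BMP7 (0.88), and CCT3 (0.87). AHSA1 stimulates the ATPase of HSP90 and CCT3 is a subunit of the cytosolic chaperonin. After removal of the means of the 6 genotype and time groups, the list held no chaperone, with RPS9 (0.83), RPL17P6 (0.83), EEF1B2P3 (0.82), RPS2P46 (0.81), and RPLP0P6 (0.80), and without the 3 low libraries it was led by RPS2P46 (0.72), RPL35P2 (0.69), and IGHG1 (0.67). Points share library and depth, and these values are a description. Among the members themselves, with group means removed, the highest of 21 pairs was HSP90AA1 with HSP90AB1 (r = 0.71), and DNAJB1 was negative with each of the 6 others (HSPH1, r = -0.54). Across the same libraries HSPH1 had r = 0.60 and DNAJB1 r = -0.49 with the mitochondrial share of UMIs. The part of that share in these pairs was not tested.

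A wider list of 81 chaperone genes was followed beside the members. Of 71 tested, 28 were called higher and 7 lower from 2 to 8 h in STAT6 WT, against the background of 15.2% and 15.6% given above, with a median log2 fold change of 0.08. In STAT6 MUT, 23 were called higher and 5 lower, where 16.1% and 16.3% of all genes were, with a median of 0.11. By step in STAT6 WT, 11 were higher and 3 lower to 4 h, and 16 were higher and 0 lower after 4 h, where 6.43% and 6.53% of all genes were called in the first step and 3.24% and 2.65% in the second. The 3 lower ones were HSF2, BAG5, and LONP1.

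HSP90 cochaperones had the highest median of the 8 classes in both genotypes. In STAT6 WT, 10 of 12 rose and none fell, with a median log2 fold change of 0.35, and in STAT6 MUT 9 of 12 rose and none fell, with a median of 0.37. Of all genes, 15.2% were called higher in STAT6 WT and 16.1% in STAT6 MUT. CHORDC1, an HSP90 partner that binds with its CHORD domains, was at 21.8 to 43.2 CPM (median 29.7) at 2 h, 50.02 to 78.4 (median 66.8) at 4 h, and 70.7 to 119 (median 76.3) at 8 h in STAT6 WT. Its ranges at 2 and 4 h were separate, and its log2 fold change to 8 h was 1.36 (SE 0.11, 2.57-fold, edgeR adjusted p = 5.1e-16) in STAT6 WT and 1.14 (SE 0.13, adjusted p = 1.49e-09) in STAT6 MUT. AHSA1 was at 153 to 215 (median 187) at 2 h and 315 to 366 (median 341) at 8 h, with a log2 fold change of 0.89 (SE 0.06, edgeR adjusted p = 5.82e-19) in STAT6 WT and 0.76 (SE 0.08, adjusted p = 3.22e-10) in STAT6 MUT. FKBP4, an immunophilin of steroid receptor complexes with HSP90, had 0.82 (SE 0.08, adjusted p = 1.79e-13, edgeR) in STAT6 WT.

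The chaperonin and prefoldin class, which folds actin and tubulin, had 7 of 13 genes higher and none lower in STAT6 WT, all 7 of them subunits of the chaperonin (TCP1 or CCT genes), and 5 higher and 1 lower in STAT6 MUT, the last being the prefoldin subunit PFDN4 (log2 -0.35, SE 0.14, edgeR adjusted p = 0.048). Of 11 J-domain genes, DNAJA1 and DNAJB2 were higher and DNAJC9 lower in each genotype. DNAJA1, a partner of HSP70, rose by a log2 fold change of 0.62 (SE 0.05) in STAT6 WT, and DNAJB2, which also binds ubiquitin, rose by 0.84 (SE 0.10, adjusted p = 5.45e-09, edgeR) in STAT6 MUT. Of 9 exchange factors and other HSP70 cochaperones, 1 was higher in STAT6 WT (BAG2) and 2 in STAT6 MUT (BAG2 and BAG1). Of all genes, 15.2% were called higher and 15.6% lower in STAT6 WT, and 16.1% and 16.3% in STAT6 MUT. The counts higher among J-domain genes and exchange factors were near these shares.

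The remaining classes each had genes called higher and genes called lower in STAT6 WT. Of all genes, 15.2% were called higher and 15.6% lower there, and 16.1% and 16.3% in STAT6 MUT. These classes are small, and whether their counts differ from those shares was not tested. Of 8 ER chaperones in STAT6 WT, 2 were higher (PDIA4 and HYOU1) and 3 lower (DNAJB9, DNAJC3, and HSPA5), and DNAJB9, an ER partner of HSPA5, had a log2 fold change of -0.48 (SE 0.19, edgeR adjusted p = 0.0471). Of 7 mitochondrial chaperones and proteases, 2 were higher (CLPX and HSPA9) and 1 was lower (LONP1) in STAT6 WT. In STAT6 MUT, LONP1, a matrix protease, had a log2 fold change of -0.33 (SE 0.08, adjusted p = 0.00122, edgeR). Among heat shock factors and response genes, HSF2 was lower at 8 than at 2 h in STAT6 WT (-0.57, SE 0.15, edgeR adjusted p = 0.00196). HSBP1, which binds HSF1, was called higher in both genotypes, and HSF1 was called higher in STAT6 MUT. Of 5 other HSP70, HSP110, and small heat shock genes, 2 were higher (HSPA4L and HSPA4) and 1 lower in STAT6 WT, whereas in STAT6 MUT 1 of the 5 was lower and none higher. The lower one, HSPA13, an HSP70 relative of the microsomes, was lower at 8 than at 2 h in STAT6 WT (log2 -0.69, SE 0.19, edgeR adjusted p = 0.00313) and in STAT6 MUT (-0.50, SE 0.20, adjusted p = 0.0451).

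**Figure D5:**
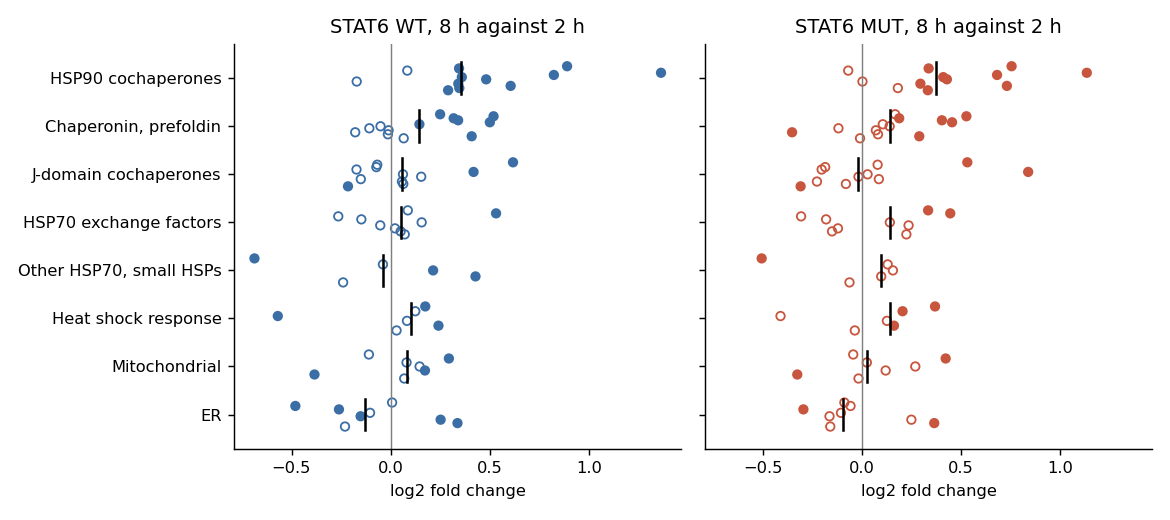
Log2 fold change from 2 to 8 h (horizontal axis) of 71 other chaperone genes by class (vertical axis) in STAT6 WT (left) and STAT6 MUT (right), with filled points for genes called at an adjusted p under 0.05 and black lines for class medians. HSP90 cochaperones lie furthest to the right in both genotypes, with medians of 0.35 and 0.37.

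Between genotypes, 3 of 71 genes were higher and 1 lower at 2 h, 0 higher and 1 lower at 4 h, and 0 of 70 either way at 8 h, where 11 of 70 had an unadjusted edgeR p under 0.05 and DESeq2 called 1. Of all genes at 8 h, 1205 of 8801 had an unadjusted edgeR p under 0.05, a similar share. The shares of calls at 2 and 4 h were below those of all genes, 8.59% and 3.97%, and the calls at both times fell to 0 without N421K. At 2 h, the ER cochaperone DNAJC3 (log2 0.29, SE 0.09, edgeR adjusted p = 0.0362), DNAJC9 (0.25, SE 0.08, adjusted p = 0.0306), and the ubiquitin gene UBB (0.17, SE 0.05, adjusted p = 0.0302) were higher in STAT6 MUT, and PDIA4, an ER disulfide isomerase, was lower (-0.28, SE 0.07, adjusted p = 0.00717). At 4 h, DNAJC2, which acts at the ribosome, was lower (-0.31, SE 0.08, edgeR adjusted p = 0.0158). Across times, 4 of 71 were higher and 4 lower, where 13.4% of all genes were called, and the count was 2 without N421K. PDIA4 (-0.24, SE 0.04, edgeR adjusted p = 1.31e-05), DNAJC2 (-0.21), and FKBP4 (-0.19, SE 0.05, adjusted p = 0.00736) were lower, and DNAJC3 (0.25), DNAJB14 (0.24), and DNAJC9 (0.19) higher. Against STAT6 WT, N421K had 5 higher and 6 lower, D419G 2 higher (DNAJC3 and DNAJC9) and 3 lower (FKBP4, DNAJC2, and TRAP1), and D419N 2 higher (HSBP1 and UBB) and 1 lower (DNAJB6), where 13.7%, 5.38%, and 2.75% of all genes were called. The interaction of time and genotype gave 0 of 71 by edgeR and by DESeq2, and 5 of 71 at an unadjusted edgeR p under 0.05, where 1248 of all 9507 genes had such a p.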

How the data were processed

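OCI-Ly1 cells gave 54 prime-seq libraries. Reads went through the Drop-seq pipeline, and the authors deposited the resulting unnormalized UMI counts for 31835 Ensembl identifiers, of which 30959 matched a symbol. The genome build in the submitters' processing notes was hg38. No aligner, annotation, or strand setting is named in the sources used here, and copies and overlapping genes can share counts. Conditions and replicate numbers came from the labels. Gene positions are from GENCODE on hg38 and promoter windows from RefSeq on GRCh38.p14.

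Counts were tested with edgeR 4.0.16 in R 4.3.3 (quasi-likelihood, TMM, filterByExpr, Benjamini-Hochberg over all genes tested, threshold 0.05). Time was fitted within each genotype (27 libraries), genotype within each time (18), and the interaction and the lines over 54. Log2 levels used a prior count of 2. SEs came from the quasi-likelihood F. Fits were tested on simulated counts. HSP90AA1 was left untested in addition to HSPA8 and HSPH1, because its copy was among the known loadings. Members and lists were chosen with earlier results of these data known. Named genes were the members, at most 3 called genes per direction from the other lists in each 8 against 2 h and genotype comparison, copies at 1 CPM or more, and the 5 genes most like HSPA8. IGHG1, RPL35P2, EEF1A1, and the other called genes of each class were named after their values were seen. A result that needs a withheld item is not reported here. Depth was 161518 to 2978715 UMIs per library, and counting error dominates genes with few UMIs. Alternatives were DESeq2 1.42.0 and its size factors, total counts, no count filter, copies summed with parents, a replicate block, line or plate row terms, and leaving out shallow libraries, lines, or replicate numbers. The libraries under 200000 UMIs were left out after seeing the data. Plots used matplotlib 3.10.9.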

Additional observations from a re-analysis of the deposited data

Results flagged for a closer look

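HSP90AA1 in STAT6 MUT at 4 h had 1 library far from the others of its group. D419N replicate 3 was at 2071 CPM, with a group median of 1763, and its gap to the next library took 0.561 of the range of the 9 libraries, above the limit of 0.493 in Dixon's test. Of 42 groups of 9 libraries tested in this way (7 genes in 6 groups), this was the 1 flag, and chance flags about 1 in 20 groups. The low HSPA8 values of 8 h, 909.5 and 1029.98 CPM, came as a pair and passed no such limit.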

How the results depend on the processing

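Of 1698 comparisons of a result with an alternative, 1583 kept the direction and side of the threshold, or stayed within 1.5 times for counts and within 1 SD for values without a test. The HSPE1 interaction turned from -0.07 to 0.0071 without D419N. Of the 4 tested genes, those called from 2 to 4 h in STAT6 WT went from 2 to 1 with no count filter. In STAT6 MUT, they went from 1 to 0 in that step with DESeq2's size factors, no count filter, DESeq2, any line left out, and without the 3 low libraries, from 1 to 0 from 4 to 8 h without D419G or N421K, and from 2 to 1 from 2 to 8 h with no count filter, copies summed, or D419G or N421K left out. Across times they went from 0 to 1 with copies summed or without D419N (HSPE1), and in D419G from 1 to 0 when libraries under 0.5 of the median total were left out. With each replicate number left out, they ranged from 1 to 3, 2 to 3, and 3 to 4 in the steps to 4 h, after 4 h, and overall in STAT6 WT, from 0 to 0, 0 to 1, and 1 to 2 in STAT6 MUT, and from 0 to 1 across times and in D419G. Other chaperone genes called from 2 to 8 h in STAT6 MUT (28) were 18 without N421K and 19 to 24 with replicate numbers left out. Between genotypes, the 4 at 2 h became 2 with total counts, no count filter, or without libraries whose total was under 0.5 of the median, 0 without N421K, and 1 to 4 with replicate numbers left out. The 1 at 4 h became 2 without D419N, 0 without N421K, and 0 to 1 with replicate numbers left out. The 0 at 8 h became 1 with no count filter, DESeq2, without D419G, N421K, or the 3 low libraries, 2 without those under 0.5 of the median total, and 0 to 4 with replicate numbers left out. Across times, the 8 became 13 without D419N, 2 without N421K, and 3 to 9 with replicate numbers left out. The 5 of D419G became 3 with no count filter or without libraries under 0.5 of the median total, and 0 to 4 with replicate numbers left out. The 3 of D419N became 0 with no count filter, 1 without the 3 low libraries, and 0 to 2 with replicate numbers left out. The 11 of N421K became 7 with no count filter and 2 to 10 with replicate numbers left out. Apart from fewer samples or genes tested, the cause was not tested.

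Replicate numbers showed no clear pairing of the libraries. Same-numbered STAT6 WT libraries of different times had correlated deviations over 0.1 in 4 of 27 cases. Their median r was 0.012, compared with 0.005 for different numbers, for which cases over 0.1 were not counted. The best match at another time had the same number in 3 of 27 STAT6 WT comparisons, where a library can enter more than once. In the mutants, this held for 2 of 9 comparisons in D419G, 3 of 9 in D419N, and 3 of 9 in N421K. With a replicate block, other chaperone genes called between genotypes went to 0 at 2 h and 0 at 4 h, 4 across times, 1 in D419G, 1 in D419N, and 4 in N421K, and the log2 fold change of HSPA8 from 2 to 8 h in STAT6 WT was 1.23. Replicate numbers found only in STAT6 WT add nothing directly to a genotype comparison with this block, which leaves fewer STAT6 WT libraries for it. HSP90AB1 passed from 2 to 4 h in STAT6 WT with the block (edgeR adjusted p = 0.0406).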
